A study of Rattus rattus with 18 samples.

Results

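Transcripts of the arcuate nucleus of the hypothalamus (ARC) were compared between rats given a miR-211 mimic and rats given a miR-211 hairpin inhibitor, 6 h after the injection. The libraries were chosen by their labels alone, and 4 mimic and 4 inhibitor libraries, 1 per animal, make up 8 of the 18 libraries of the series. The other 10 come from an experiment on diet and wheel running and stayed out of every test below. The series asks how the ARC transcriptome changes with diet and exercise, and what raising or blocking miR-211 does to it.

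All 8 rats were female Wistar rats (labelled WSH female) on chow, with a guide cannula in the third ventricle. After an overnight fast they received either MiRIDIAN hsa-miR-211 mimic or MiRIDIAN hsa-miR-211 hairpin inhibitor in the transfection agent BrainFectIN at the start of the dark phase, then had chow until they were killed 6 h later. The labels give the species as Rattus rattus and no age. Tissue punches from both hemispheres were pooled within an animal, so each value is a mean over neurons, glia, vessels and any blood cells in the punch. A mimic is a synthetic duplex that adds to the mature miRNA, and a hairpin inhibitor binds the animal's own miRNA. The study also had a negative control group, which was not analysed here, so that a lower level with the mimic and a higher level with the inhibitor cannot be told apart. The libraries count transcript ends, so mature miR-211 itself is not in the counts.

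MicroRNAs bind short matching sites, mostly in the untranslated ends of messenger RNAs, and lower the stability or translation of those messages. miR-211 lies in an intron of Trpm1 and shares its seed with miR-204, which lies in an intron of Trpm3, and the pair is best known from pigment cells and the retinal pigment epithelium. The ARC holds the Pomc neurons that restrain feeding, the Agrp neurons that drive it, Ghrh neurons, astrocytes, microglia, and the tanycytes that line the floor of the third ventricle.

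Depth ranged widely. The mimic libraries held 3318751, 2130132, 2419253 and 1275263 counts on genes (replicates 1 to 4), and the inhibitor libraries 1559206, 2096588, 2002693 and 6615927. Inhibitor replicate 4 was the deepest, and the groups overlapped in depth (exact two-sided permutation test, p = 0.8) and in genes detected, 13809 to 16501 per library (p = 0.714 by the same exact test). The smallest p that 4 libraries against 4 allow is 0.0286. A single count corresponded to between 0.149 and 0.786 CPM, the count scaled to a common library size. Of 32883 genes in each file, 19259 had a count in some library and 9625 passed edgeR's filter on low counts.

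Inhibitor replicate 2 and mimic replicate 3 lay farthest out, on opposite sides. In a principal component analysis of the 500 most variable genes, PC1 held 44.1% of the variance and PC2 18.8%. PC1 placed the mimic libraries at -3.70, -12.64, -29.29 and 0.19 and the inhibitor libraries at 3.80, 31.51, 2.41 and 7.72. The groups did not overlap, with mimic replicate 4 closest to the inhibitor libraries, inhibitor replicate 2 at 1 end and mimic replicate 3 at the other. The difference in mean PC1, mimic minus inhibitor, was -22.72 (exact two-sided permutation test, p = 0.0286). Without inhibitor replicate 2 it was -11.90 and without inhibitor replicate 4 -22.30, with p = 0.429 and 0.114 by the same exact test. It was -24.92 without mimic replicate 2, -24.28 without mimic replicate 3 and -25.73 without inhibitor replicate 3, each with an exact p of 0.0571. The largest weights on the inhibitor side of PC1, 0.108 and 0.101, belonged to ENSRNOG00000011483 and ENSRNOG00000000239, which have no name here. Named genes with large weights there included the cytokines Il1b, Ccl2, Ccl3, Cxcl3 and Cxcl2, the metalloprotease inhibitor Timp1, and S100a8, abundant in neutrophils. The study chose these named genes on these same libraries, and genes without a name could not be described.

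Across the whole profile, the genes called were lower with the mimic with 1 exception. edgeR with Benjamini-Hochberg adjustment called 43 genes, 42 lower with the mimic (0.436% of the genes tested) and 1 higher (0.0104%). The levels of the 42 were 1.80-fold to 9.87-fold lower, with a median of 3.19-fold. The 1 gene higher with the mimic was Slco1c1, a transporter of thyroid hormone into the brain. In what follows, rose and fell mean higher and lower with the mimic than with the inhibitor, not a change from an untreated level. In all 43, the 4 mimic and 4 inhibitor libraries did not overlap. Among all genes tested, 357 had all mimic libraries below all inhibitor libraries (3.71%) and 213 had the reverse (2.21%). All 43 also stand in the study's own list for this contrast, which was made from these libraries, so this overlap is not independent evidence. Because these are bulk samples, fewer cells of a type and less RNA per cell cannot be told apart.

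**Figure D1:**
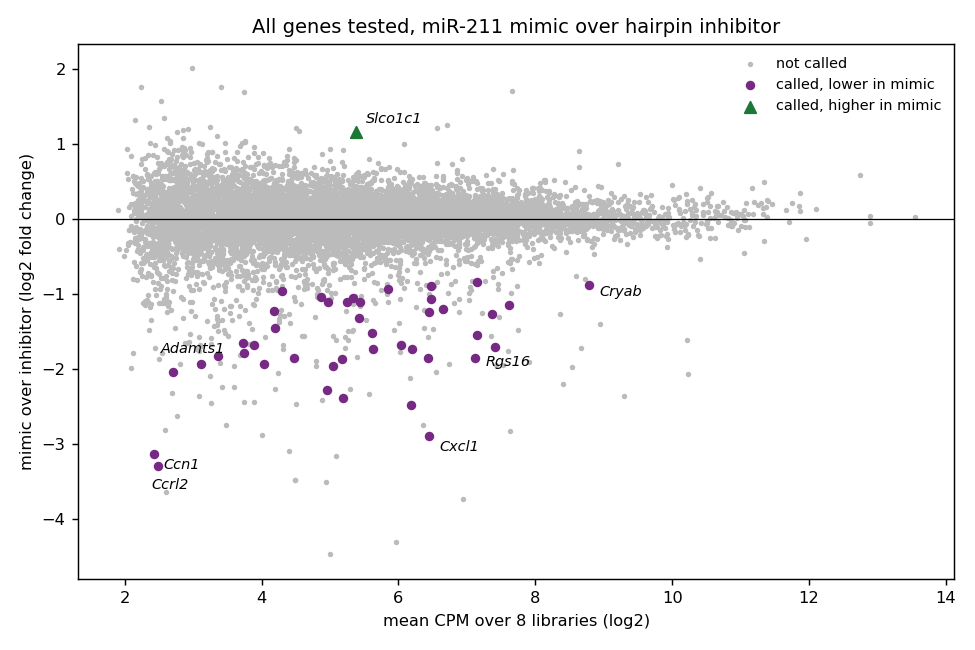
Log2 fold change of mimic over inhibitor (vertical axis) against mean abundance in log2 CPM (horizontal axis) for the 9625 genes tested, with the 43 genes called by edgeR marked. Of the marked genes, 42 lie below 0 and 1, Slco1c1, above it, while the bulk of genes is centred on 0.01.

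The calls depended on which libraries were in the fit. edgeR called 0 genes without mimic replicate 1 and 0 without mimic replicate 3, where 988 and 756 genes had an unadjusted p under 0.05. No other tool was run with a library left out. The genes called lower numbered 2 without mimic replicate 2, 12 without mimic replicate 4, 105 without inhibitor replicate 1, 25 without inhibitor replicate 2, 61 without inhibitor replicate 3 and 1 without inhibitor replicate 4. Genes called higher numbered 0 without mimic replicate 2 and 0 without inhibitor replicate 4, where edgeR gave 839 and 943 genes with an unadjusted p under 0.05, and they numbered 6 without inhibitor replicate 1 and 3 without inhibitor replicate 3. Each of the 43 genes kept its direction and an unadjusted p under 0.05 in all 8 of these fits. Their Benjamini-Hochberg adjusted p from edgeR lay between 0.0724 and 0.171 without mimic replicate 1 and between 0.0582 and 0.175 without mimic replicate 3. None of the 43 calls held in all 8 fits, and this applies to every called gene named below. DESeq2, the tool that the study names, called 205 of 11338 genes, 192 lower (1.69%) and 13 higher (0.115%), with all 43 among them. Below, a gene is called where edgeR called it, unless another tool is named.

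The differences were one-sided in the tails of the distribution. Scaling between libraries sets the centre near 0, so the centre does not show whether levels shifted as a whole. The median log2 fold change of all genes tested was 0.01, with a middle range from -0.15 to 0.17 between the 25th and 75th percentiles. The 5th percentile lay at -0.60 and the 95th at 0.47. A difference of at least 2-fold was fitted for 222 genes lower with the mimic and 29 higher, and at least 4-fold for 41 and 1. Among the 3209 least abundant genes 115 were at least 2-fold lower, against 58 of the 3208 in the middle and 49 of the 3208 most abundant, while 23, 3 and 3 were at least 2-fold higher. Calls were spread over abundance, with 12, 15 and 16 genes in these classes. Most genes had a fitted value close to 0, with 4663 below and 4962 above it.

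Slco1c1 (ENSRNOG00000009740), the 1 gene that rose, encodes a carrier for thyroxine found in brain capillaries, astrocytes and tanycytes. Its level was 64.1, 59.8, 49.9 and 55.0 CPM in mimic replicates 1 to 4 and 31.8, 24.7, 21.4 and 25.4 CPM in inhibitor replicates 1 to 4. All mimic libraries were above all inhibitor libraries, and both groups were narrow. The fitted log2 difference was 1.16 (SE, the standard error of the fit, 0.15, adjusted p = 0.0286 by edgeR with Benjamini-Hochberg adjustment). In the list for thyroid hormone and retinoid handling, 3 of 14 genes had an identifier and all 3 were tested. Besides Slco1c1 these were the thyroid hormone receptor Thra, with a log2 fold change of 0.04, and the retinaldehyde dehydrogenase Aldh1a1, with 0.39, and neither was called. Over the list the median was 0.39.

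Other genes with higher levels in the mimic libraries did not pass edgeR's test, and those named here were chosen after their values were seen. Gpr37l1, a receptor of astrocytes, was measured at 333, 289.7, 335 and 289 CPM with the mimic and 246, 203, 207 and 239.5 CPM with the inhibitor. Ptch1, the receptor of hedgehog proteins, was at 175, 124, 134 and 118 CPM against 103, 68.7, 91.7 and 70.8 CPM. In both genes every mimic library was above every inhibitor library. On the log2 scale the differences were 0.48 and 0.73, with adjusted p = 0.0898 and 0.104 by edgeR with Benjamini-Hochberg adjustment. Gdf11, a ligand of the TGF-beta family, had a log2 fold change of 0.67, the kinase Nim1k 0.76, the secreted factor Metrn 0.75 and the phosphatase Dusp7 2.01. DESeq2 called all 6 of these genes higher. A pair of neuronal genes of high abundance had narrow ranges. Hap1, the huntingtin-associated protein, was at 867, 916, 909.8 and 961 CPM with the mimic and 777, 714, 749 and 707 CPM with the inhibitor. Ndn, or necdin, was at 1227, 1394, 1445 and 1182 CPM against 1028, 952, 1102 and 1098 CPM. Neither gene overlapped between the groups, and their log2 fold changes were 0.31 and 0.33. DESeq2 called Hap1 higher and did not call Ndn.

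Gene names limit what can be said of the rest. The deposited files hold identifiers only, and the study's tables name 603 of them, of which 513 were tested, so 9112 tested genes have no name here. The gene groups below come from lists of pathway and marker genes, and in each of them fewer than 80% of the genes had an identifier, so no statement about a whole list is made. Most genes that could be matched got their name through the study's list for this contrast. For those the direction was fixed when the study chose them on these libraries, and neither their counts nor their medians are independent evidence. Of the 43 called genes, 25 are in at least 1 of the pathway lists and 18 in none. Since 0.436% of all genes tested were called lower and 0.0104% higher, 0 calls in a short list or marker set say little about it.

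The list of immediate early genes, which cells transcribe within minutes of a stimulus, held the most calls and also the most tested genes. As a share of tested genes it was not first, since the list for hypoxia and glycolysis had 2 of 3 called. Of 32 genes on the list 17 were matched and tested, 15 of them through the study's list for this contrast, and 7 fell with the mimic while 0 rose by edgeR. An unadjusted p under 0.05 was reached by 16 genes, all lower, and DESeq2 called 16 lower. Over all 9625 genes tested 611 were lower and 342 higher at that level (9.90%), and the median log2 fold change was 0.01. The median of the list was -1.55, and that of its 2 genes named through the diet experiment -1.09. Since the other 15 were chosen on these libraries, the count and median of this list cannot be held against those of all genes, and the same applies to the lists below whose genes were named in that way. Fos (ENSRNOG00000008015), a subunit of the AP-1 transcription factor, was at 60.8, 94.5, 54.2 and 80.2 CPM in the 4 mimic libraries and 186, 269, 135 and 251 CPM in the 4 inhibitor libraries. Its partner Jun was at 98.9, 105, 80.6 and 119 CPM against 219, 182, 146 and 179 CPM. For both genes inhibitor replicate 3 was the lowest inhibitor library and still lay above every mimic library. Fitted log2 fold changes were -1.55 (SE 0.24, adjusted p = 0.0361) for Fos and -0.85 (SE 0.15, adjusted p = 0.0377) for Jun, by edgeR with Benjamini-Hochberg adjustment.

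Zfp36 (ENSRNOG00000058388), or tristetraprolin, binds AU-rich elements of cytokine messages and speeds their decay. It was measured at 39.3, 39.4, 23.0 and 48.7 CPM with the mimic and 155, 165, 79.5 and 139 CPM with the inhibitor. The inhibitor libraries were all above the mimic libraries, with replicate 3 the lowest in each group. This is a log2 fold change of -1.86 (SE 0.26, adjusted p = 0.0298 by edgeR with Benjamini-Hochberg adjustment). Csrnp1, a nuclear protein induced by axin, had the largest change of the called immediate early genes, from 85.6, 82.3, 28.5 and 50.2 CPM with the inhibitor to 15.8, 11.9, 6.82 and 11.004 CPM with the mimic. Maff, a small Maf transcription factor, was at 8.94, 9.97, 6.40 and 13.4 CPM with the mimic and 51.9, 41.1, 19.4 and 25.98 CPM with the inhibitor. Both were highest in inhibitor replicate 1, unlike most called genes. Csrnp1 fell by 2.39 on the log2 scale and Maff fell by 1.85. The zinc finger factor Klf4 fell by 1.04, and Ier3, which protects cells from death, fell by 1.68.

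Among the uncalled members of this list were Junb, with a log2 fold change of -1.56, Egr1, with -1.09, and Myc, with -1.58. Fosl1, another AP-1 subunit, was at 3.28, 2.85, 2.56 and 13.4 CPM with the mimic and 138, 39.2, 20.4 and 26.1 CPM with the inhibitor. Its groups did not overlap, but mimic replicate 4 and inhibitor replicate 1 each stood far above the rest of their group. The log2 fold change was -3.51 with an SE of 0.88. The genes Atf3 and Nr4a1 got their names through the study's diet experiment, not through this contrast. Atf3 was at 17.0, 4.27, 2.13 and 12.6 CPM against 31.8, 45.5, 18.3 and 26.9 CPM (log2 fold change -1.73), with no overlap. Nr4a1, which neurons induce on activity, was at 11.6, 14.7, 9.81 and 11.8 CPM against 18.2, 18.9, 13.8 and 14.6 CPM (log2 fold change -0.44), and its groups overlapped.

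NF-kB signalling carries the response to TNF and IL-1 into the nucleus. Of the 30 genes listed for it 13 had an identifier and 11 were tested, 10 of these named through the study's list for this contrast. With edgeR 3 fell and 0 rose, 11 had an unadjusted p under 0.05, and DESeq2 called 8 lower of the 13 it tested. The median log2 fold change was -1.14. Bcl3 (ENSRNOG00000043416), an atypical inhibitor of the IkB family that can activate transcription, was at 18.8, 23.7, 15.8 and 35.4 CPM with the mimic and 53.2, 108, 61.7 and 77.5 CPM with the inhibitor. Nfkbiz, a nuclear member of the same family, was at 7.15, 5.70, 5.12 and 6.29 CPM against 11.03, 26.1, 17.8 and 27.9 CPM. The receptor of TNF, Tnfrsf1a, was at 33.1, 42.7, 34.5 and 49.5 CPM against 64.2, 90.5, 67.8 and 78.0 CPM. In all 3 genes the inhibitor libraries lay above the mimic libraries, and inhibitor replicate 1 came closest to them. In log2 units the differences were -1.74 for Bcl3, -1.79 for Nfkbiz and -0.93 for Tnfrsf1a, with adjusted p = 0.0361, 0.0361 and 0.0380 by edgeR with Benjamini-Hochberg adjustment. Nfkbia, the classical inhibitor of NF-kB that NF-kB itself induces, missed the threshold. It was at 101, 86.0, 64.0 and 102 CPM against 220, 489.6, 202 and 289 CPM, without overlap, with a log2 fold change of -1.77 (adjusted p = 0.0522 by edgeR with Benjamini-Hochberg adjustment). Rela, a subunit of NF-kB named through the diet experiment, was at 56.6, 47.5, 42.2 and 46.4 CPM against 62.3, 106, 58.6 and 74.4 CPM, without overlap (log2 fold change -0.64).

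Of 29 genes listed as cytokines and chemokines 17 had an identifier and 13 were tested, 10 of these named through the study's list for this contrast. By edgeR 1 fell and 0 rose, 10 were lower and 1 higher at an unadjusted p under 0.05, and DESeq2 called 12 lower of the 16 it tested. The median log2 fold change was -2.83. The called gene was Cxcl1 (ENSRNOG00000002802), a chemokine that attracts neutrophils. It was measured at 12.2, 32.3, 24.7 and 13.4 CPM in the mimic libraries and 94.7, 235, 109 and 179 CPM in the inhibitor libraries. Every inhibitor library was at least 94.7 CPM and every mimic library at most 32.3 CPM. The fitted log2 difference was -2.90 (SE 0.41, adjusted p = 0.0361 by edgeR with Benjamini-Hochberg adjustment).

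Il1b, Cxcl2 and Ccl2 were less even over the inhibitor libraries than Cxcl1. Ccl3 was not, at 105, 206, 109 and 151 CPM in inhibitor replicates 1 to 4. Its groups did not overlap, and it was not called (log2 fold change -2.76). Il1b, a cytokine of activated myeloid cells, was at 14.0, 16.1, 12.8 and 29.1 CPM with the mimic and 20.1, 479, 158 and 253 CPM with the inhibitor. Inhibitor replicate 1 lay within the range of the mimic libraries, and the other 3 inhibitor libraries were far above it. Cxcl2, another neutrophil chemokine, was at 4.77, 8.07, 7.68 and 3.14 CPM against 12.98, 163, 79.0 and 219.7 CPM, and Ccl2, which attracts monocytes, at 76.9, 35.1, 18.3 and 62.9 CPM against 313, 761.5, 167 and 143 CPM. Neither overlapped between the groups, and they were highest in different inhibitor libraries, replicate 4 for Cxcl2 and replicate 2 for Ccl2. The log2 fold changes were -3.73 for Il1b, -4.31 for Cxcl2 and -2.83 for Ccl2, with SEs of 0.92, 0.89 and 0.73. The adjusted p was 0.221, 0.135 and 0.236 by edgeR with Benjamini-Hochberg adjustment. Il11 and Il6 were highest in inhibitor replicate 1 instead. Il11 was at 0.298, 1.90, 0 and 1.57 CPM against 24.7, 8.71, 5.60 and 5.82 CPM. Il6 was not counted in any mimic library and had 8, 3, 4 and 8 counts in the inhibitor libraries, too few to pass edgeR's filter.

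Cxcl12, a chemokine that brain cells make at rest, was the exception in direction. It was at 30.1, 30.4, 30.3 and 20.4 CPM with the mimic and 21.4, 17.4, 15.3 and 12.1 CPM with the inhibitor. Mimic replicate 4 lay inside the range of the inhibitor libraries, and the other 3 mimic libraries were above it. This is a log2 fold change of 0.81 (SE 0.22, adjusted p = 0.174 by edgeR with Benjamini-Hochberg adjustment). The cytokines named through the diet experiment had smaller values, with log2 fold changes of -0.83 for Csf1, -1.57 for Ccl5 and -0.71 for Cxcl16, the last 2 with overlapping groups.

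**Figure D2:**
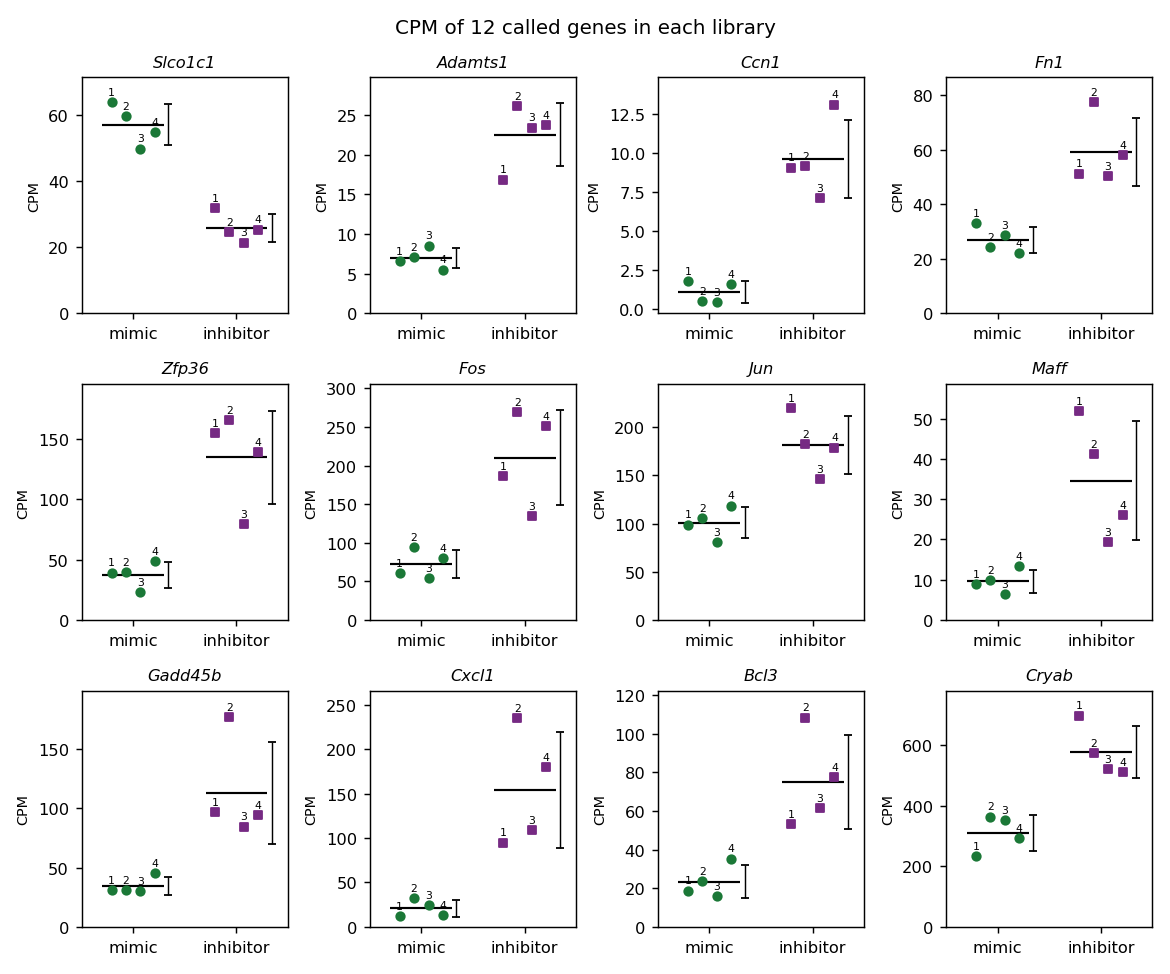
Level in CPM (vertical axis, linear scale) of 12 called genes in each mimic and each inhibitor library, where the number at a point is the replicate, the line the mean and the bar the SD (n = 4). The groups do not overlap in any of the 12, and Slco1c1 is the only 1 of them that is higher with the mimic.

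None of the tested genes listed for IL-6 family signalling and the acute phase was called. Of 24 listed, 9 had an identifier and were tested, 8 of them named through the study's list for this contrast. With edgeR 0 were called, while all 9 were lower at an unadjusted p under 0.05. DESeq2 called 7 lower and limma-voom 1. The median log2 fold change was -1.73. Cebpd, a transcription factor of the acute phase, was at 182, 228, 95.5 and 248 CPM with the mimic. With the inhibitor it was at 419, 893, 453 and 721 CPM, the most abundant of the tested list members there. In the mimic libraries Stat3 had the higher mean. Lcn2, which binds iron carriers of bacteria, was at 48.3, 58.9, 85.3 and 115 CPM against 74.0, 545, 305 and 237 CPM. Cebpd did not overlap between the groups, while Lcn2 in inhibitor replicate 1 lay within the mimic range. On the log2 scale the differences were -1.73 and -1.95, with adjusted p = 0.116 and 0.335 by edgeR with Benjamini-Hochberg adjustment. Stat3, the transcription factor of this pathway, got its name through the diet experiment and had a log2 fold change of -0.51 with overlapping groups.

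The 3 Gadd45 genes, which respond to DNA damage and other stress and slow the cell cycle, all fell with the mimic. They were the only called genes of the list for apoptosis and cell cycle arrest, which names 24 genes, 9 of them matched and tested (8 through the study's list for this contrast), with 0 called higher. At an unadjusted p under 0.05 there were 8 lower, and DESeq2 called 7 lower. Gadd45b (ENSRNOG00000019822) was at 31.3, 30.9, 29.9 and 45.6 CPM with the mimic and 96.7, 177, 84.6 and 93.9 CPM with the inhibitor. Gadd45g was at 61.4, 105, 64.0 and 87.2 CPM against 191, 384, 186 and 277 CPM, and Gadd45a at 60.8, 62.2, 55.9 and 49.5 CPM against 96.7, 171, 93.8 and 121 CPM. Inhibitor replicate 2 was the highest library for each, and no inhibitor library of any of the 3 reached down to the mimic range. Fitted log2 fold changes were -1.73 (SE 0.25), -1.72 (SE 0.27) and -1.07 (SE 0.19). Their adjusted p was 0.0298, 0.0380 and 0.0377 by edgeR with Benjamini-Hochberg adjustment. This list as measured had a median of -1.36. Cdkn1a, an inhibitor of cyclin-dependent kinases, was called lower by DESeq2 and not by edgeR, at 30.4, 18.5, 14.5 and 20.4 CPM against 40.9, 72.6, 43.3 and 80.5 CPM with a log2 fold change of -1.4996.

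Metallothioneins, which bind zinc and copper, were abundant in the inhibitor libraries. Of 19 genes listed for metallothioneins and oxidative stress 6 were matched and tested, all through the study's list for this contrast, and 1 fell and 0 rose with edgeR. All 6 were lower at an unadjusted p under 0.05, and DESeq2 called 6 lower. The called gene was Mt1, at 8.04, 10.9, 8.10 and 17.3 CPM with the mimic and 30.5, 90.0, 35.7 and 48.7 CPM with the inhibitor, with a log2 fold change of -2.29 (SE 0.39, adjusted p = 0.0383 by edgeR with Benjamini-Hochberg adjustment). Mt2A was the most abundant of the list, at 428, 374, 287 and 769 CPM against 1038, 3444, 1662 and 1634 CPM. Both were highest in inhibitor replicate 2 and, within the mimic group, in replicate 4, and neither overlapped. The log2 fold change of Mt2A was -2.07 with an SE of 0.45. Metallothionein genes have close paralogs and pseudogenes, and reads that align to more than 1 place are not counted, so the split between them is uncertain. Hmox1, the heme-degrading enzyme, was at 28.9, 43.7, 30.7 and 46.4 CPM against 98.6, 169, 73.9 and 256 CPM, and the mitochondrial dismutase Sod2 at 107, 75.04, 83.2 and 103 CPM against 143, 249, 149 and 151 CPM. Neither overlapped and neither was called, with log2 fold changes of -2.04 and -0.91. The median over the tested genes was -1.997.

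Of the heat shock proteins and cochaperones, 3 of 12 listed were matched and tested, and 1 fell by edgeR while 0 rose. All 3 were lower at an unadjusted p under 0.05, and DESeq2 called 2 lower. Cryab (ENSRNOG00000010524), a small heat shock protein abundant in glia and lens, was the most abundant called gene of all. It was at 234, 363, 351 and 294 CPM with the mimic and 697, 574, 521 and 509 CPM with the inhibitor. The lowest inhibitor library was at 509 CPM and the highest mimic library at 363 CPM. The log2 fold change was -0.89 (SE 0.15, adjusted p = 0.0361 by edgeR with Benjamini-Hochberg adjustment), among the smallest of the calls. The cochaperone Bag3, named like Cryab through the study's list for this contrast, was at 46.8, 72.2, 66.5 and 88.0 CPM against 110.3, 124, 129 and 122 CPM and was not called (log2 fold change -0.84). Hspb1, named through the diet experiment, was at 119, 205, 149.7 and 626 CPM against 622, 739.8, 475 and 1025 CPM. Mimic replicate 4 was above inhibitor replicates 1 and 3, and the log2 fold change was -1.40 with an SE of 0.58.

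The list for ER stress and the integrated stress response names 18 genes, of which 4 were matched and tested, all through the study's list for this contrast. With edgeR 0 were called, all 4 were lower at an unadjusted p under 0.05, DESeq2 called 4 lower and limma-voom 0. They were Ppp1r15a, which reverses the block of translation (log2 fold change -1.12), the mTOR inhibitor Ddit4 (-0.70), the membrane-bound factor Creb3l1 (-0.87) and the translation repressor Eif4ebp1 (-1.06). The list's median was -0.97.

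Genes of the glucocorticoid response include kinases and carriers that steroid hormones induce in many tissues. Of 14 listed, 6 were matched and tested, all through the study's list for this contrast, and 2 fell and 0 rose by edgeR. All 6 were lower at an unadjusted p under 0.05, and DESeq2 called 6 lower. Sgk1, a kinase that regulates ion channels, was at 63.2, 73.1, 56.7 and 49.5 CPM with the mimic and 106, 111, 202 and 144 CPM with the inhibitor. Map3k6, a stress-activated kinase, was at 2.68, 1.42, 2.99 and 3.14 CPM against 7.14, 14.0, 8.66 and 11.9 CPM. Sgk1 was highest in inhibitor replicate 3 and Map3k6 in inhibitor replicate 2, and neither overlapped. In log2 units the differences were -1.21 (SE 0.21, adjusted p = 0.0377) and -2.05 (SE 0.35, adjusted p = 0.0361) by edgeR with Benjamini-Hochberg adjustment. Fkbp5, which tunes the glucocorticoid receptor, was not called and was at 55.1, 42.7, 45.6 and 51.1 CPM against 64.9, 105, 82.5 and 82.4 CPM (log2 fold change -0.79), without overlap. Angptl4, an inhibitor of lipoprotein lipase, was not called at a log2 fold change of -1.91. Across the list the median log2 fold change was -1.47.

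Of 17 genes for the response to hypoxia and for glycolysis, 3 were matched and tested, all through the study's list for this contrast, and 2 fell and 0 rose by edgeR. All 3 were lower at an unadjusted p under 0.05 and were called lower by DESeq2. Pfkfb3, whose product activates glycolysis, was at 69.4, 63.6, 57.2 and 58.2 CPM with the mimic and 96.0, 150, 96.3 and 122 CPM with the inhibitor. Adm, the vasodilator peptide adrenomedullin, was at 2.98, 3.32, 2.13 and 7.07 CPM against 9.08, 13.5, 13.2 and 17.6 CPM. Neither overlapped, and inhibitor replicate 1 was the lowest inhibitor library in both. Pfkfb3 fell by 0.90 on the log2 scale and Adm fell by 1.94. The glucose transporter Slc2a1 was at 183, 136, 158 and 144 CPM against 285, 288, 197 and 223 CPM and missed the threshold, at -0.67 on the log2 scale (adjusted p = 0.0898 by edgeR with Benjamini-Hochberg adjustment). The list as measured had a median of -0.90.

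Matrix and repair genes included some of the calls with the smallest p. Of 23 listed, 11 had an identifier and 10 were tested, all through the study's list for this contrast, and 4 fell and 0 rose by edgeR. All 10 were lower at an unadjusted p under 0.05, and DESeq2 called 10 lower of the 11 it tested, Timp1 being the exception. Adamts1 (ENSRNOG00000001607), a secreted protease of proteoglycans, was at 6.55, 7.12, 8.53 and 5.50 CPM with the mimic and 16.9, 26.1, 23.4 and 23.7 CPM with the inhibitor. The lowest inhibitor library, at 16.9 CPM, stood clear of the highest mimic library, at 8.53 CPM. Ccn1 (ENSRNOG00000014350), a matrix-associated signalling protein, was at 1.79, 0.475, 0.427 and 1.57 CPM against 9.08, 9.19, 7.13 and 13.1 CPM, and the mimic values rest on 6, 1, 1 and 2 counts. The adhesive matrix protein fibronectin, Fn1, was at 33.1, 24.2, 28.6 and 22.01 CPM against 51.3, 77.4, 50.4 and 58.1 CPM. Tnfaip6, which binds hyaluronan, was at 4.17, 9.50, 5.97 and 6.29 CPM against 21.4, 22.3, 12.7 and 23.7 CPM. In all 4 genes the groups did not overlap, and inhibitor replicate 4 was the highest library for Ccn1 and Tnfaip6. The log2 fold changes were -1.69 (SE 0.23), -3.14 (SE 0.44), -1.11 (SE 0.18) and -1.66 (SE 0.30). In that order the adjusted p was 0.0286, 0.0286, 0.0361 and 0.0380 by edgeR with Benjamini-Hochberg adjustment.

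Among the uncalled genes of the matrix list, Timp1 and Cd44 varied widely between the libraries of a group. Timp1, an inhibitor of metalloproteases, was at 107, 77.4, 37.1 and 268 CPM with the mimic and 547, 989, 250.2 and 428 CPM with the inhibitor. Cd44, a receptor for hyaluronan, was at 19.1, 12.3, 6.82 and 29.9 CPM against 83.1, 31.4, 24.5 and 56.0 CPM. In both genes mimic replicate 4 was higher than inhibitor replicate 3, so the groups overlapped. On the log2 scale the differences were -2.21 and -1.57, with SEs of 0.70 and 0.50. The adjusted p was 0.364 and 0.324 by edgeR with Benjamini-Hochberg adjustment. The list's median was -1.68.

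**Figure D3:**
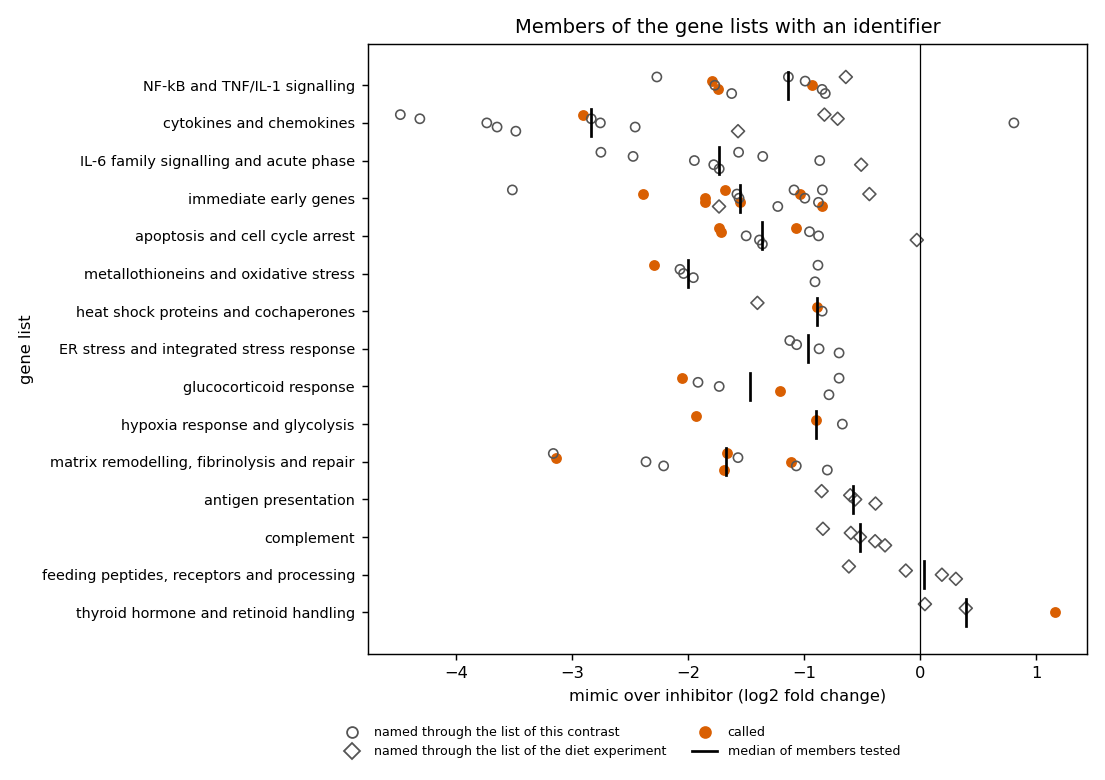
Log2 fold change of mimic over inhibitor (horizontal axis) of each tested gene of the pathway lists (vertical axis), with circles for genes named through the study's list for this contrast, diamonds for those named through the diet experiment, filled orange for called genes and a black bar for the list's median. Medians run from -2.83 for cytokines and chemokines to 0.39 for thyroid hormone and retinoid handling among lists with more than 1 gene tested, and the genes shown as circles were chosen by the study on these libraries.

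The 18 called genes outside the pathway lists include the gene with the smallest p. ENSRNOG00000054344, for which the study's tables give no symbol, was at 22.9, 26.6, 22.6 and 29.9 CPM with the mimic and 61.0, 89.5, 72.4 and 67.8 CPM with the inhibitor. Both groups were narrow and lay far apart. The fitted log2 difference was -1.53 (SE 0.16, adjusted p = 0.00733 by edgeR with Benjamini-Hochberg adjustment), and it kept its call in 6 of the 8 fits with a library left out, more than any other gene.

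A few of these genes act in lipid and chemokine signals of inflammation. The gene listed as prostaglandin E synthase (ENSRNOG00000006320) makes a prostaglandin of fever and pain. It was at 18.8, 25.6, 20.05 and 25.2 CPM with the mimic and 61.6, 198, 91.2 and 142 CPM with the inhibitor. Ccrl2 (ENSRNOG00000033234), an atypical receptor that presents chemerin, was at 0.894, 1.42, 0.853 and 0.786 CPM against 6.49, 19.8, 6.11 and 8.51 CPM, where the mimic values rest on 3, 3, 2 and 1 counts. In both genes inhibitor replicate 2 was the highest library and all inhibitor libraries were above all mimic libraries. Fitted log2 fold changes were -2.48 (SE 0.35) and -3.30 (SE 0.53), the latter the largest of all calls, each with adjusted p = 0.0351 by edgeR with Benjamini-Hochberg adjustment. Icam1, an adhesion molecule of activated endothelium and leukocytes, fell by 1.88 on the log2 scale, and Il17ra, a receptor of IL-17 cytokines, fell by 1.11. Slfn2 (ENSRNOG00000037113), a schlafen protein tied to immune cell quiescence, was at 13.1, 11.4, 13.2 and 16.5 CPM against 48.0, 83.2, 34.6 and 43.9 CPM, with no overlap. Its log2 fold change was -1.96 (SE 0.27, adjusted p = 0.0286 by edgeR with Benjamini-Hochberg adjustment).

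Others act in receptor signalling and metabolism. Rgs16 (ENSRNOG00000027024), which shortens signals of G protein-coupled receptors, was at 50.9, 86.4, 46.5 and 55.8 CPM with the mimic and 163, 312, 179 and 217 CPM with the inhibitor. Upp1 (ENSRNOG00000004972), uridine phosphorylase, was at 39.9, 46.1, 45.6 and 77.8 CPM against 112, 142, 117 and 118 CPM. Mimic replicate 2 was the highest mimic library for Rgs16 and mimic replicate 4 for Upp1, and both remained under all inhibitor libraries. In log2 units the differences were -1.87 (SE 0.25) and -1.25 (SE 0.19), each with adjusted p = 0.0298 by edgeR with Benjamini-Hochberg adjustment. Ptpn1, a phosphatase that dampens insulin and leptin receptor signals, was at 23.2, 27.5, 19.6 and 29.1 CPM against 45.4, 83.2, 44.8 and 70.8 CPM. Gpd1, the cytosolic glycerol phosphate dehydrogenase and the next most abundant called gene after Cryab, was at 131, 112, 147 and 95.9 CPM against 178, 322, 328 and 259 CPM. Neither overlapped between the groups, and the lowest inhibitor libraries were replicate 3 for Ptpn1 and replicate 1 for Gpd1. Ptpn1 fell by 1.33 on the log2 scale and Gpd1 fell by 1.16.

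The small GTPase Rasl11a was at 8.64, 6.17, 4.69 and 7.07 CPM with the mimic and 40.2, 24.7, 18.3 and 21.7 CPM with the inhibitor, highest in inhibitor replicate 1. RGD1564664 was at 72.7, 105, 109 and 103 CPM against 196, 318, 183 and 239 CPM, highest in inhibitor replicate 2. Both were without overlap, with log2 fold changes of -1.93 and -1.27 and adjusted p = 0.0298 each by edgeR with Benjamini-Hochberg adjustment. The last 6 called genes are given by their fold change alone. In log2 units the inositol trisphosphate kinase Itpkc fell by 1.46, the growth factor Fgf2 fell by 1.23 and the cell cycle regulator Sertad1 fell by 1.11. On the same scale the scaffold Frmpd1 fell by 1.06, Fam43a fell by 0.96 and Tmem252 fell by 1.83.

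**Figure D4:**
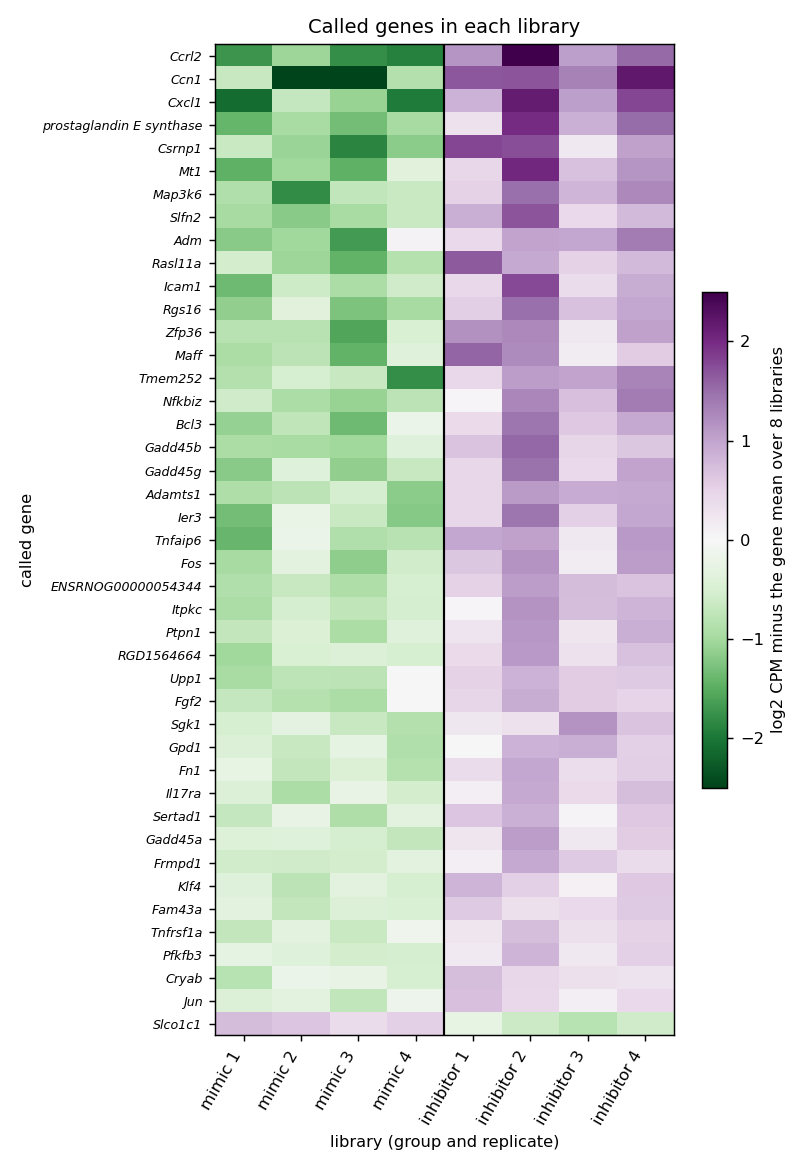
Log2 of the level in each library relative to the gene's mean (colour, clipped at -2.5 and 2.5) for the 43 called genes (vertical axis, sorted by log2 fold change) in the 4 mimic and 4 inhibitor libraries (horizontal axis). Slco1c1 is the only gene with its higher values in the mimic columns, and inhibitor replicate 2 is the highest inhibitor library for 28 of the other 42.

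The 42 genes that fell did not have the same level in the 4 inhibitor libraries. The median over these genes of the log2 level relative to each gene's mean was -1.15, -0.89, -1.12 and -0.83 in mimic replicates 1 to 4. In inhibitor replicates 1 to 4 it was 0.20, 0.88, 0.24 and 0.54. Inhibitor replicate 2 was the highest inhibitor library for 28 of the 42. Inhibitor replicate 1 was the highest for 6, namely Rasl11a, Cryab, Csrnp1, Jun, Klf4 and Maff, so these included 4 of the 7 called immediate early genes. Inhibitor replicate 4 was the highest for Ccn1, Tmem252, Nfkbiz, Tnfaip6, Fam43a and Adm, and inhibitor replicate 3 for Sgk1 and Gpd1.

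All matched markers of neutrophils, monocytes and macrophages got their names through the study's list for this contrast. Their direction was fixed by that choice, and only their spread over the libraries of a group is described. Of 14 neutrophil markers 4 had an identifier (S100a8, Il1r2, Trem1 and Mcemp1), and none of them was at 0 in every library. Their summed level was 11.02, 5.70, 8.53 and 6.29 CPM in the mimic libraries and 9.08, 184, 70.3 and 152 CPM in the inhibitor libraries. Inhibitor replicate 1 was at the level of the mimic libraries, and the other 3 inhibitor libraries were far above it. S100a8, the only 1 that passed edgeR's filter, was the most abundant over all 8 libraries, at 6.85, 1.90, 2.99 and 1.57 CPM with the mimic and 4.54, 68.2, 28.5 and 64.4 CPM with the inhibitor (log2 fold change -3.49, adjusted p = 0.169 by edgeR with Benjamini-Hochberg adjustment). Il1r2, a decoy receptor for IL-1, was at 2.98, 3.32, 2.99 and 2.36 CPM against 1.95, 70.2, 25.5 and 51.7 CPM. edgeR called 0 of the neutrophil markers, 1 had an unadjusted p under 0.05, limma-voom called 0, and DESeq2 called all 4 lower. The defining markers Mpo, Elane and S100a9 had no identifier.

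Of 8 markers of monocytes and macrophages 3 had an identifier, Cd14, Lyz2 and Cd68. All 3 were named through the study's list for this contrast, so their direction was fixed by that choice as well. Their sum was 146, 171, 162 and 212 CPM with the mimic and 230, 1163, 446 and 815 CPM with the inhibitor. Here inhibitor replicate 1 lay just above the mimic libraries. Lyz2, or lysozyme, was the most abundant of them at 129, 145, 145 and 185 CPM against 205, 1049, 387 and 717 CPM (log2 fold change -1.98). With edgeR 0 of the 3 were called, all 3 had an unadjusted p under 0.05, limma-voom called 0 and DESeq2 called 3 lower. The part of myeloid cells in the differences was not tested.

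Markers of microglia, astrocytes and oligodendrocytes overlapped between the groups. They were named through the diet experiment and cannot be set against the markers of neutrophils, monocytes and macrophages. In the microglia list 1 of 8 markers had an identifier, C1qa, at 96.8, 154, 162 and 161 CPM with the mimic and 148, 259.8, 161 and 179 CPM with the inhibitor. The astrocyte marker Gfap, 1 of 7 with an identifier, was at 1105, 1931, 1234 and 2893 CPM against 1892, 2698, 2571 and 2628 CPM. The oligodendrocyte marker Mbp, 1 of 8, was at 5702, 8482, 10267 and 5304 CPM against 9656, 6397, 8337 and 6550.2 CPM. None of these 3 genes was called by edgeR, none had an unadjusted p under 0.05, and DESeq2 and limma-voom called none of them. The log2 fold changes were -0.39 for C1qa, -0.45 for Gfap and -0.06 for Mbp. Of 9 neuronal markers 3 had an identifier, Snap25, Slc32a1 and Gad2, with a summed level of 1734, 1748, 2683 and 1589 CPM with the mimic and 1711, 1189, 1886 and 1498 CPM with the inhibitor. The highest sum was in mimic replicate 3 and the lowest in inhibitor replicate 2. Of 8 tanycyte markers 2 had an identifier, and they went in opposite directions. Slco1c1 was called higher without overlap, as described above, while Nes, named through the diet experiment, was at 11.02, 8.07, 4.27 and 24.4 CPM against 66.2, 16.0, 7.64 and 18.7 CPM, with overlap and a log2 fold change of -1.22. Tagln of smooth muscle, 1 of 7, overlapped as well, with sums of 43.2, 34.2, 87.9 and 62.1 CPM against 79.8, 53.2, 43.3 and 56.3 CPM. Lists for ependymal cells, oligodendrocyte precursors, lymphocytes, red blood cells, endothelial cells, fibroblasts, choroid plexus and pituitary had no gene with an identifier.

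**Figure D5:**
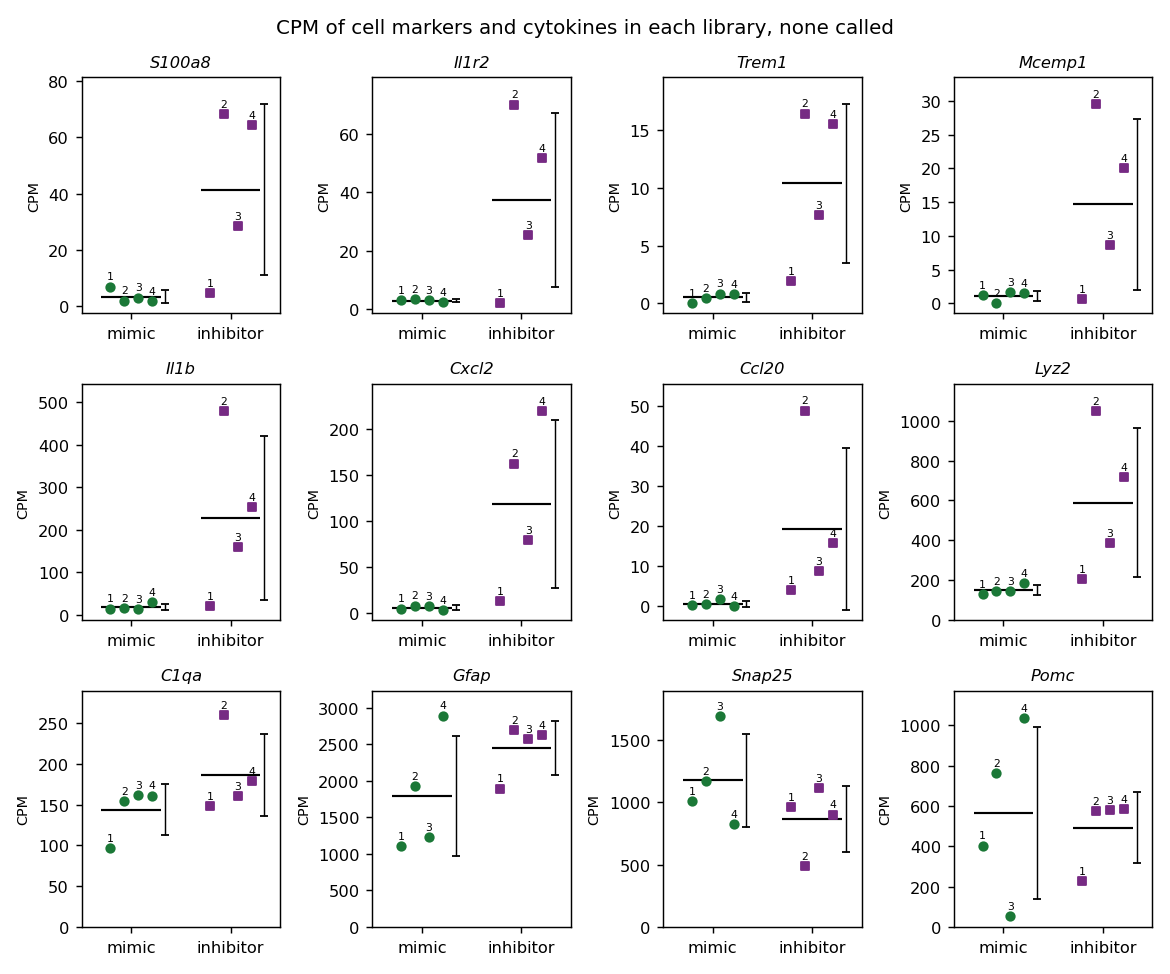
Level in CPM (vertical axis, linear scale) of 12 cell markers and cytokines in each mimic and each inhibitor library, where the number at a point is the replicate, the line the mean and the bar the SD (n = 4). None of the 12 was called by edgeR, and Il1r2, Trem1, Mcemp1 and Ccl20 were below its filter. In S100a8, Il1r2, Trem1, Mcemp1 and Il1b inhibitor replicate 1 lies near the mimic libraries.

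The peptides of ARC neurons differed between animals within both groups. Of 8 ARC markers only Pomc and Ghrh had an identifier, and both were counted in all 8 libraries. Pomc, the precursor of the melanocortins that restrain feeding, was at 403, 764, 52.9 and 1034 CPM with the mimic and 228, 573, 580.4 and 585 CPM with the inhibitor. Ghrh, which releases growth hormone, was at 65.5, 46.1, 12.4 and 65.2 CPM against 23.4, 58.5, 43.3 and 73.8 CPM. Mimic replicate 3 was the lowest library for both, and the groups overlapped. On the log2 scale the differences were 0.19 (SE 0.80) and -0.12 (SE 0.51), with adjusted p = 0.969 and 0.966 by edgeR with Benjamini-Hochberg adjustment. The sign for Pomc turned with limma-voom, to -0.42, and with the replicate number as a block, to -0.11.

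In the full list of feeding peptides, receptors and processing enzymes 4 of 30 genes had an identifier and were tested, all through the diet experiment. edgeR, DESeq2 and limma-voom called 0 of them, and 1 had an unadjusted p under 0.05. That gene was Cck, the satiety peptide cholecystokinin, at 25.3, 37.0, 18.8 and 23.6 CPM with the mimic and 38.9, 45.0, 24.97 and 49.6 CPM with the inhibitor, with overlap and a log2 fold change of -0.61 (SE 0.25). Trh, the releasing hormone of thyrotropin, was at 123, 132, 222 and 168 CPM against 133, 120.5, 147 and 121 CPM (log2 fold change 0.31). Agrp, Npy and the leptin receptor could not be looked up. The median of its tested genes was 0.03.

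None of the tested genes listed for antigen presentation, complement and the interferon response was called. Over all 9625 genes tested 0.436% were called lower and 0.0104% higher, so 0 calls among so few genes are not a result about them. All 4 tested genes for antigen presentation (of 10 listed) and all 5 for complement (of 10 listed) got their names through the diet experiment. edgeR, DESeq2 and limma-voom called 0 in either list, and 0 had an unadjusted p under 0.05, against 9.90% of all genes tested. The medians were -0.58 and -0.52. Cd74, the invariant chain of class II molecules, was at 31.0, 141, 72.1 and 176 CPM with the mimic and 101, 232, 142 and 132 CPM with the inhibitor. The complement protein C3 was at 64.7, 104, 97.2 and 163 CPM against 78.5, 297, 160 and 106 CPM. Both varied at least 2-fold within each group and overlapped. Of 20 interferon response genes 2 were tested and edgeR and limma-voom called 0. Ifitm1 was lower at an unadjusted p under 0.05 and called lower by DESeq2 (log2 fold change -2.06 by edgeR), and Mx2, named through the diet experiment, had a log2 fold change of 0.39. The list's median was -0.83.

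Of 17 genes in a list of targets of miR-204 or miR-211 reported elsewhere only Meis1, a homeobox factor, had an identifier, and with 51 counts over the mimic and 45 over the inhibitor libraries it was below edgeR's filter. Of 12 genes of miRNA processing and silencing only Ago3 had an identifier, with 6 and 13 counts. The host genes Trpm1 and Trpm3 had none. Whether called genes carry sites for miR-211 was not tested, since no sequences of the files' genome build were at hand.

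Levels in the chow-fed sedentary rats of the diet experiment are given side by side, with no comparison. Those 3 rats had no cannula and no injection, their RNA came from another extraction kit, and the files do not say whether their counts were corrected for unique molecular identifiers. Cxcl1, Il1b and Ccl2 had 0 counts in all 3 of these libraries. Adamts1 was at 1.36, 0.887 and 0.855 CPM, Zfp36 at 4.85, 5.50 and 2.99 CPM, Bcl3 at 1.55, 3.55 and 1.28 CPM and the prostaglandin E synthase gene at 2.52, 4.79 and 1.07 CPM. In the mimic libraries the same 4 genes had means of 6.93, 37.6, 23.4 and 22.4 CPM, and in the inhibitor libraries of 22.5, 135, 75.2 and 123 CPM. Slco1c1 was at 51.4, 53.2 and 74.99 CPM in the chow-fed sedentary rats, Mt1 at 28.3, 56.8 and 19.0 CPM, Fos at 34.3, 21.8 and 39.95 CPM and Cryab at 164, 199 and 217 CPM. Fn1 was at 24.4, 50.8 and 44.7 CPM and Klf4 at 17.5, 25.6 and 26.9 CPM. ENSRNOG00000054344 was at 8.54, 10.3 and 9.83 CPM.

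DESeq2 called more genes than edgeR. Of its 205 calls 162 had no overlap between the groups, 28 had no name in the study's tables and 175 were tested by edgeR too. Among those lower with the mimic and not called by edgeR were Nfkbia, Hmox1, Cebpd and Junb, and among genes that edgeR's filter removed were Csf3, a growth factor of neutrophils, and Ccl20. Csf3 had 8 counts over the mimic libraries and 264 over the inhibitor libraries, and Ccl20 had 6 and 229.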

How the data were processed

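The 8 libraries were made by the authors with a bulk form of MARS-seq, which barcodes RNA and sequences transcript ends. Reads were trimmed, aligned to the rat genome Rnor6 with STAR 2.7.9a, freed of PCR duplicates with SAMtools and counted per Ensembl gene with HTSeq 0.13.5 without strand, per the submitters' processing notes and the paper. Without strand, a gene and an antisense or overlapping transcript cannot be told apart. The values deposited by the authors are whole-number counts, not normalized, and those of the 8 libraries are corrected for unique molecular identifiers.

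Counts were analysed in R 4.3.3. edgeR 4.0.16 was run with filterByExpr, TMM factors and robust quasi-likelihood tests on the 8 libraries without covariates, p-values were adjusted by Benjamini-Hochberg over all 9625 genes tested, and a gene was called at an adjusted p under 0.05. The common biological coefficient of variation was 0.205. Log2 fold changes are mimic over inhibitor, with standard errors from the fit. Levels are CPM computed with TMM factors, or on total counts for the chow-fed sedentary libraries. limma-voom (limma 3.58.1), DESeq2 1.42.0, other scaling, filters, thresholds, thinned counts, a replicate block and each library left out in turn were the alternatives. The principal component analysis used log2 CPM with a prior count of 2. The method was also run on simulated counts with 200 genes changed by 1.5 on the log2 scale. The outcome is not reported here, and no result rests on it. All p-values are for a difference between the mimic and inhibitor groups, with animals as the replicates.

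Samples were grouped by their labels. The gene lists and their members were chosen with earlier results of these data known. Named genes are up to 12 in each direction with the smallest p among called genes without overlap (1 was called higher), the 3 most abundant called genes, the 3 with the largest fold change and at least 20 counts on average in the higher group, called list members, and the ARC markers. Every other gene in the text was picked with its values in view. Symbols come from the study's 2 supplementary gene tables, which were used for names and for which genes each list holds, and not for values. A RefSeq table at hand matched 0 of the identifiers. Lists with fewer than 80% of their genes matched were described and not tested. Results of 2 list members are not reported here, while the counts and medians of their lists include them.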

Additional observations from a re-analysis of the deposited data

Results flagged for a closer look

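In 22 of 296 groups of 4 libraries examined, 1 library lay far from the other 3, judged by its gap to the nearest of them over the range of the group. For independent values of a normal distribution about 1 in 20 such groups is expected, or 14.8 of 296. All groups here come from the same 8 libraries, and many genes were picked with their values in view. The figure of 14.8 is thus not the number that chance gives for these groups. The depth of inhibitor replicate 4 was 1 of them, at 6615927 counts on genes. The other 21 were levels of single genes, in CPM.

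In inhibitor replicate 2 the level lay above the other inhibitor libraries for Gadd45b (177), Ier5l (84.2), Sod2 (249), Nfkb2 (99.7), Csf1 (275) and Ccl5 (95.8). In inhibitor replicate 1 it lay above them for Fosl1 (138) and Il11 (24.7) and below them for Gfap (1892) and Pomc (228). Eif4ebp1 was low in inhibitor replicate 3 (28.5) and Thra in inhibitor replicate 4 (326).

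In mimic replicate 4 the level lay above the other mimic libraries for Upp1 (77.8), Gadd45b (45.6), Fosl1 (13.4) and Hspb1 (626) and below them for Cxcl12 (20.4). RGD1564664 (72.7) and C1qa (96.8) were low in mimic replicate 1. Ccrl2 was high in mimic replicate 2 (1.42), and Ripk3 was low in mimic replicate 3 (6.40). What sets these libraries apart for these genes was not tested.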

How the results depend on the processing

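The 43 calls kept their direction in every alternative in which they were tested. None of the alternatives moved the median log2 fold change of all genes by 0.1 or more. Each way of scaling sets that median near 0, so it could hardly move. RLE and upper-quartile scaling, limma-voom, a mean of at least 20 counts and a 2-fold minimum left the number called lower within 1.5 times of 42. DESeq2 called 192 lower and 13 higher, 162 of them without overlap. With every gene that had a count the numbers were 118, 7 and 110, with counts thinned to the smallest library 24, 2 and 26, at an adjusted p under 0.01 they were 1, 0 and 1, and at an adjusted p under 0.1 they were 76, 3 and 79. At 0.01 the 953 genes with an unadjusted p under 0.05 are the same as at 0.05. Fits without 1 library called 0 to 105 lower, 0 to 6 higher and 0 to 111 without overlap by edgeR. These fits hold fewer samples, and why they differ was not tested. Of the 43 genes, 12 were called in all 8 alternatives to scaling, tool, filter, depth and block.

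PC1 differed by -29.30 to -11.90 without 1 library. Its exact p was 0.0286 with 2000 genes, with all genes tested and with a prior count of 0.5.

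With the replicate block 50 genes were called lower and 2 higher, and 29 of the 43 were among them. In this replicate block fit Gad2 turned to -0.000686 and Pomc to -0.11. Libraries with the same replicate number correlated over genes at 0.0495 to 0.214 after removal of the group mean, so the number does not show a pairing.

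Among uncalled genes near 0, limma-voom turned Pomc to -0.42, and thinning turned Tagln to 0.038. Without 1 library, log2 fold changes ran from -0.15 to 0.21 for Gad2, -0.048 to 0.099 for Thra, -0.079 to 0.26 for Slc32a1, -0.37 to 0.20 for Ghrh, -0.25 to 0.076 for Mbp, -0.28 to 0.57 for Pomc and -0.34 to 0.15 for Tagln. The cause was not tested. Depth limits genes with few counts, since 1 count is worth up to 0.786 CPM.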

Other observations

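Of 431 genes that the study listed for its diet experiment 361 were tested here. edgeR called 2 of them lower with the mimic and 0 higher. At an unadjusted p under 0.05 there were 42 lower and 19 higher, against 611 and 342 of all 9625 genes tested. The median log2 fold change of the 361 was 0.01. Leaving out those that are also in its list for this contrast, which was chosen on these libraries, there were 23 lower and 17 higher of 340. Of these genes DESeq2 called 2 lower and 0 higher among the 375 it tested. The genes left out are those that the study, with DESeq2, found to differ between these libraries. Low counts among the remaining genes were thus largely fixed in advance and cannot be set against those of all genes. S100a6, a calcium-binding protein listed for the diet experiment alone, was at 10.7, 24.2, 27.3 and 20.4 CPM with the mimic and 37.0, 84.2, 28.0 and 76.3 CPM with the inhibitor, without overlap (log2 fold change -1.4957, SE 0.41). DESeq2 called S100a6 lower, and edgeR did not.

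Hbegf, a growth factor that binds the EGF receptor, was at 5.07, 4.75, 3.41 and 3.93 CPM with the mimic and 62.9, 21.3, 9.68 and 7.91 CPM with the inhibitor. The groups did not overlap, but the inhibitor libraries spread widely with replicate 1 the highest, and the gene missed the threshold, at -2.45 on the log2 scale (adjusted p = 0.269 by edgeR with Benjamini-Hochberg adjustment). DESeq2 called Hbegf lower. Slpi, a secreted protease inhibitor, had 7, 3, 7 and 6 counts in the mimic libraries and 4, 214, 60 and 475 in the inhibitor libraries, so inhibitor replicate 1 was at the mimic level.

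RT1-A2, a class I histocompatibility gene, took a high or a low level in single animals of both groups. It was at 2.68, 48.9, 5.12 and 57.4 CPM with the mimic and 86.3, 258, 116 and 3.73 CPM with the inhibitor. ENSRNOG00000005924, which has no name here, was at 145, 182, 87.4 and 167 CPM against 68.1, 1.45, 184 and 1.34 CPM, close to 0 in inhibitor replicates 2 and 4 alone. Neither was called.

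Mt-co1, the only mitochondrially encoded gene of 13 listed with an identifier, was at 94.2, 401, 565 and 174 CPM with the mimic and 130.4, 91.4, 87.1 and 74.1 CPM with the inhibitor. Mimic replicates 2 and 3 were the highest, and the groups overlapped (log2 fold change 1.70, adjusted p = 0.380 by edgeR with Benjamini-Hochberg adjustment). In the chow-fed sedentary libraries of the diet experiment it was at 2533, 3008 and 3829.5 CPM. The small nuclear RNA gene U1 had 1, 21, 9 and 16 counts in the mimic libraries and 0, 0, 0 and 1 in the inhibitor libraries, and it did not pass edgeR's filter. DESeq2 called it higher with the mimic.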
